A study of Mus musculus with 6 samples.

Results

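The chaperone and proteasome genes of single olfactory sensory neurons were described, gene by gene and cell by cell. Members were taken by gene name from the count table, and 137 of its 55341 genes matched, 87 in the chaperone list and 50 in the proteasome list. The chaperone list takes the Hsp70, Hsp110, Hsp90, small Hsp, chaperonin, J protein (Dnaj), CCT (Cct and Tcp1) and Bag gene names. The proteasome list takes every gene named Psma to Psmg with a number, and names marked as pseudogenes with "-ps" were left out of both lists. A few matches carry the name without the role, among them Hspb11, known as an intraflagellar transport protein, and Psmc3ip, known as a recombination factor.

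The 6 neurons, called cells 1 to 6, came from the olfactory epithelium of wild-type C57BL/6 mice aged 6 weeks. Each had been recorded from physiologically and then frozen, and each gave 1 CEL-Seq2 library, a method that counts the 3' ends of polyadenylated transcripts. The cells form 1 group with no treatment, and the labels name no animals and no recorded responses. Differences between cells therefore have no replicate check and no p-value, and every interval given is an exact 95% interval that covers counting error only.

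Chaperones bind unfolded proteins and help them to fold. Hsp70 proteins do so in a cycle driven by ATP, in which J proteins deliver the client and start ATP hydrolysis, and Hsp110 and Bag proteins release the nucleotide. Hsp90 takes over late folding steps of kinases and receptors, and the CCT ring folds actin and tubulin. The 26S proteasome degrades proteins tagged with ubiquitin: a barrel of alpha and beta rings, the 20S core, cuts them, and the 19S particle, with an ATPase base and further non-ATPase subunits, recognises, unfolds and feeds them in.

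The libraries held 8613, 34478, 122546, 60902, 22525 and 11725 counts in cells 1 to 6. A level of 3 counts, used as the limit for a gene without a count, was 24.5 CPM (counts scaled to a common library total) in cell 3 and 348 CPM in cell 1. All 7 markers of mature olfactory neurons were found, with summed levels between 13349 and 26820 CPM, and Cnga2 and Ano2 were at 0 in cell 6. Immature neuron markers, 4 of 5 found with Gng8 at 0, summed to between 581 and 2726 CPM. Of the markers of other cells, 4 of 5 red blood cell genes summed to between 171 CPM in cell 6 and 12610 CPM in cell 4, with Alas2 at 0. Gland genes, 6 of 6 found, summed to between 0 in cell 6 and 22043 CPM in cell 2. Sustentacular genes had 21 counts (4 of 5 genes found), leukocyte genes 8 (2 of 8), endothelial genes 3 (1 of 3) and basal cell genes none (0 of 3). The part of these other markers in the results below was not tested.

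At least 1 count was found for 67 of 87 chaperone genes and for 44 of 50 proteasome genes, against 29.8% of all genes and 49.8% of protein-coding genes. Counts in all 6 cells were found for 10 chaperone genes and 6 proteasome genes, against 1.5% of all genes and 2.89% of protein-coding genes. The 10 chaperone genes were Hsp90ab1, Hsp90aa1, Hspa8, Dnaja1, Hspa4l, Hspa4, Hsp90b1, Cct6a, Cct2 and Bag1. The 6 proteasome genes were Psma2, Psmb3, Psmb7, Psmc6, Psmd12 and Psmd14. Detection moved with depth: cells 1 to 6 showed 25, 42, 56, 48, 44 and 15 chaperone genes and 19, 35, 40, 41, 32 and 12 proteasome genes. With every cell thinned to 8613 counts, cells 1 to 5 showed between 24.0 and 29.3 chaperone genes and between 19 and 22.5 proteasome genes. Cell 6 then showed 14.1 and 11, and over all genes it also had the fewest, 2462 against 3058 to 3999 in the other cells.

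No count was found in any cell for 26 members, against 70.2% of all genes and 50.2% of protein-coding genes. The 20 in the chaperone list were Bag3, Bag5, Cct6b, Dnaja4, Dnajb3, Dnajb5, Dnajb7, Dnajb8, Dnajc22, Dnajc28, Dnajc5b, Dnajc5g, Hspa13, Hspa1a, Hspa1l, Hspb2, Hspb3, Hspb7, Hspb8 and Hspb9. The 6 in the proteasome list were Psma8, Psmb9, Psmb10, Psmc3ip, Psmg1 and Psmg4. Such a gene was not detectable at these depths, and the limit of 3 counts lies at 24.5 CPM in the deepest cell.

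The chaperone genes together held 2093 counts, and the proteasome genes 1075. The chaperone sum was 6850, 8063, 8919, 6272, 9145 and 6397 CPM in cells 1 to 6, with a median of 7457 CPM and an SD of 1274 CPM over the 6 cells. Cell 5 was highest and cell 4 lowest, and the ratio of cell 5 to cell 4 was 1.46 (1.22 to 1.73). The proteasome sum was 3019, 3974, 4039, 4581, 4440 and 3241 CPM, with a median of 4006 CPM and an SD of 631 CPM. Cell 4 was highest and cell 1 lowest, with a ratio of 1.52 (1.01 to 2.36). In both ratios the highest and lowest of the 6 cells were picked from the same values. The intervals do not cover that choice, so a limit above 1 does not show that 2 cells differ. The order of the cells rests on the scaling: with TMM factors, cell 3 was highest in both sums, at 12943 CPM for chaperones and 5862 CPM for the proteasome. The lowest were then cell 6 for chaperones (4065 CPM) and cell 1 for the proteasome (2017 CPM). With DESeq2 size factors cell 3 was highest for chaperones (10368 CPM), but cell 4 stayed highest for the proteasome (5203 CPM). The lowest cells were the same as with TMM factors.

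**Figure D1:**
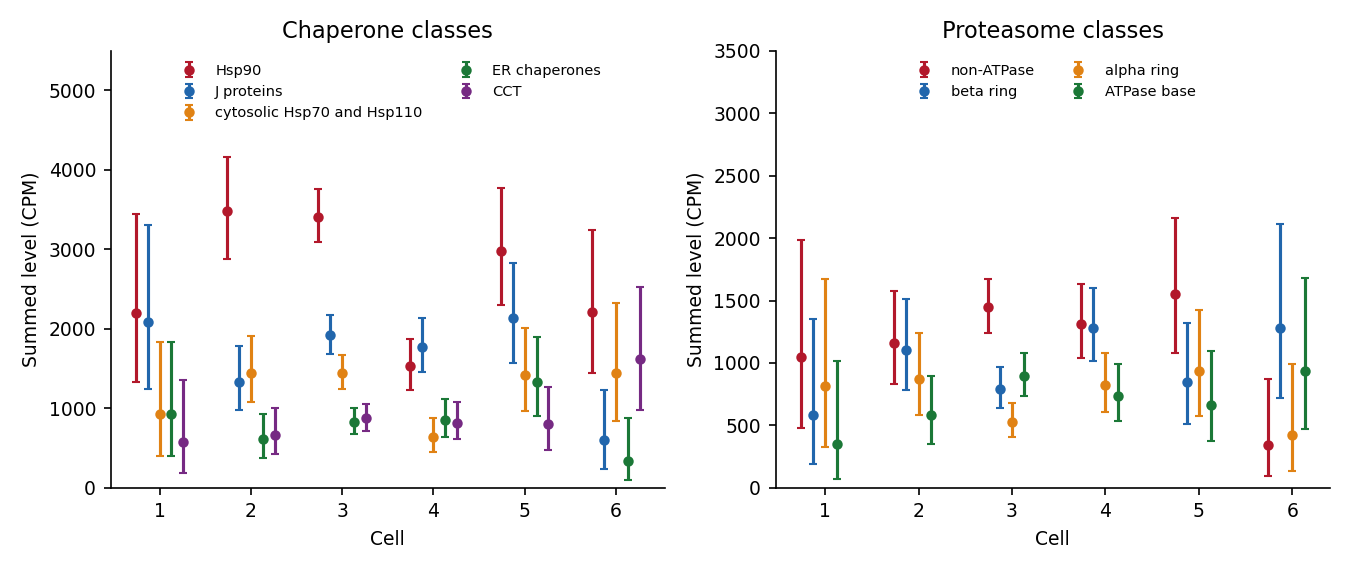
Summed level of gene classes in cells 1 to 6, in CPM, for chaperones (left) and proteasome genes (right). Points are sums over the genes of a class and bars are exact 95% Poisson intervals. Hsp90 stands above the other chaperone classes in cells 2 and 3, at 3480 and 3411 CPM, and is at 1527 CPM in cell 4. The proteasome classes overlap in most cells.

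The Hsp90 and Hsp70 systems of the cytosol carried much of the chaperone sum. Hsp90ab1, Hsp90aa1 and Hspa8 together took 941 of the 2093 chaperone counts (45.0%, Clopper-Pearson interval 42.8% to 47.1%). This interval is of the pooled counts, 1093 of them from cell 3, and does not cover the spread between cells. The median share over cells was 41.0%. Their share was 55.4% in cell 2 (49.3% to 61.3%), 49.2% in cell 3 (46.2% to 52.2%) and 29.1% in cell 4 (24.6% to 33.9%). The other cells lay between 40.3% and 41.3%, so cell 4 had the lowest share, and its interval reaches neither that of cell 2 nor that of cell 3.

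Hsp90ab1, the constitutive cytosolic Hsp90, was the most abundant chaperone transcript by median CPM, which is not divided by length, with 1625, 1972, 1616, 920, 1643 and 853 CPM in cells 1 to 6. It ranked 42nd of all genes by median CPM, and this first place among chaperones is lost once pseudogene copies, described below, are added. Hsp90aa1, the stress-inducible paralog, had 581, 1508, 1795, 608, 1332 and 1365 CPM and ranked 56th. Both genes were low in cell 4, Hsp90ab1 also in cell 6 and Hsp90aa1 also in cell 1, where it rests on 5 counts. The Hsp90ab1 share of the counts of the pair was 73.7%, 56.7%, 47.4%, 60.2%, 55.2% and 38.5%, with a median of 55.9%. The shares of cells 1 and 6 rest on 19 and 26 counts, with intervals of 48.8% to 90.9% and 20.2% to 59.4%, which overlap.

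Hspa8, which encodes the constitutive Hsc70, had 581, 986, 979, 296, 710 and 426 CPM. Cells 2 and 3 were highest and cell 4 lowest, and the interval of cell 4 (175 to 467 CPM) lies below those of cell 2 (683 to 1378 CPM) and cell 3 (812 to 1171 CPM). Among the cytosolic Hsp70 genes Hspa8, Hspa1a, Hspa1b, Hspa1l and Hspa2, Hspa8 held 198 of 213 counts, and its share had a median of 97.2% over cells. The stress-inducible Hsp70 genes were low: Hspa1a had no count, and Hspa1b had 14, of which 1 was in cell 2, 10 in cell 3 and 3 in cell 4. The 2 genes share 23.8% of the 50-base windows at the 3' end of Hspa1b, so reads of one may have been lost or counted for the other. Hspa2, a paralog known from the testis, had 1 count and Hspa1l none.

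Among other genes known as targets of the heat shock response, Hsp90aa1 was high, at a median of 1348 CPM, and the following were low. Hsph1, the inducible Hsp110, had 5 counts in all, and Dnajb1, the main inducible J protein, had 3. Hspb1, the small heat shock protein Hsp25 of the mouse, had 13 counts, 11 of them in cell 3 (89.8 CPM, 44.8 to 161 CPM), and shares 48.8% of its windows with a pseudogene. Bag3 and Dnaja4 had none. Hsf1, the master factor of that response, had 6 counts over all cells, Hsf2 had 10 and Hsf4 none.

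The Hsp110 genes Hspa4 and Hspa4l were found in every cell. Hspa4 had 116, 116, 114, 181, 178 and 341 CPM. Hspa4l had 116, 261, 171, 82.1, 444 and 682 CPM, so cell 6 was highest and cell 4 lowest. Hspa12a, Hspa12b and Hspa14, of the same class, had between 1 and 7 counts, and Hspa13 had none.

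**Figure D2:**
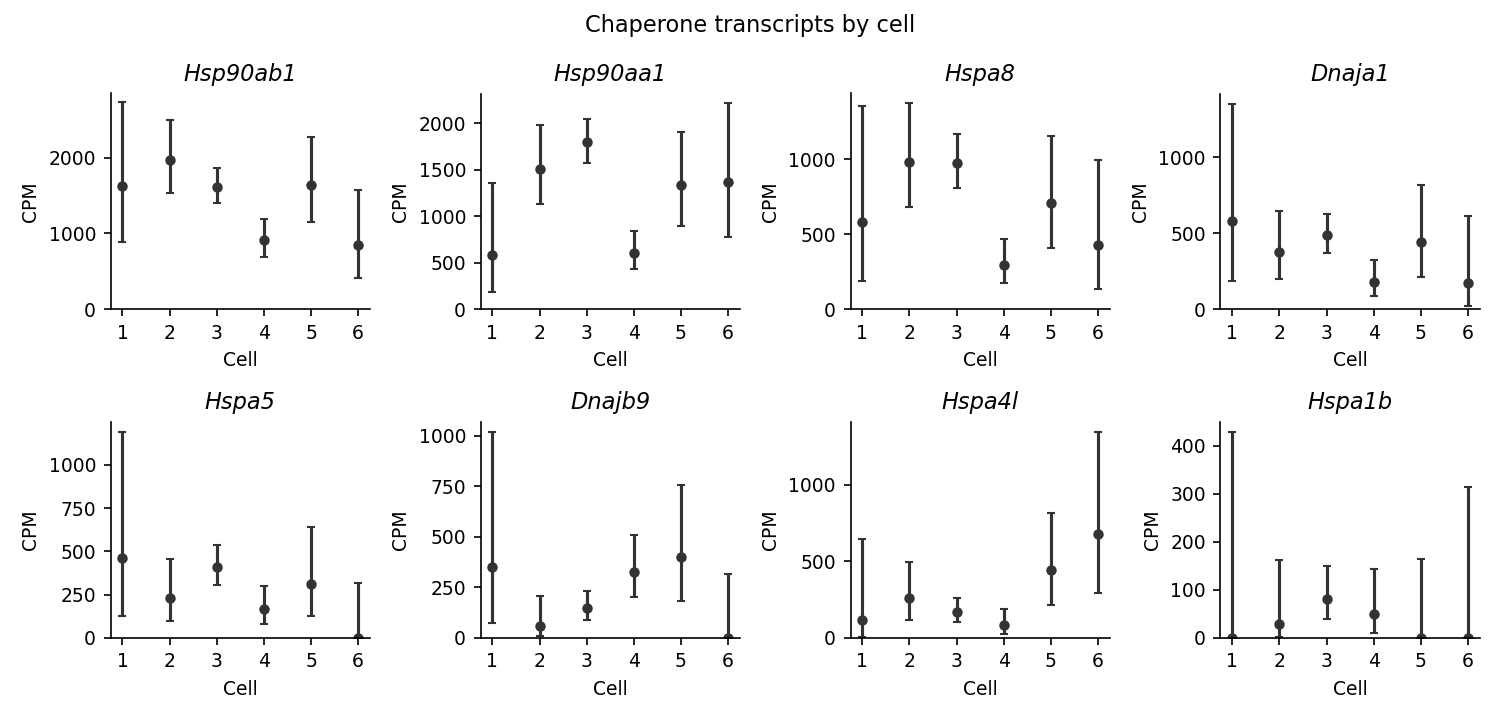
Level of 8 chaperone genes in cells 1 to 6, in CPM, each panel with its own axis starting at 0. Points are single cells and bars are exact 95% Poisson intervals. Hsp90ab1, Hsp90aa1 and Hspa8 are low in cell 4, at 920, 608 and 296 CPM, while Hspa4l is highest in cell 6 at 682 CPM and Hspa1b is at 0 in cells 1, 5 and 6.

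Reads of the most abundant chaperones were also listed under pseudogenes. Processed pseudogenes are intronless copies of a transcript reinserted in the genome, and most are thought to be silent. In all, 59 of the 137 members share at least 1 window of 50 bases near their 3' ends with another gene, and 21 share at least 10%. Annotated pseudogenes sharing at least 10% of a member's windows were 22 in number and held 662 counts, against 3168 counts in the members themselves. Hspa8 shares 49.3% of its windows, and 4 copies, Gm15459, Gm8355, Gm6210 and Gm7232, held 102, 98, 64 and 63 counts. These 327 counts exceed the 198 counts of Hspa8, and 5 further pseudogenes that share between 1% and 10% of its windows held another 219, which makes 546 in all. Hsp90aa1 shares 44.8% of its windows, and its copies Gm12346 and Gm5844 held 106 and 97 counts, against 360 counts of Hsp90aa1.

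The following coding stretches are shown because gene and copy read alike in them. Each covers 90 bases over an exon junction, which falls after base 45 in the parent gene. For Hspa8 (GRCm38, chr9:40804651-40804976, plus strand, intron included in the coordinates), the same 90 bases stand without a break in Gm15459 (chr5:5781756-5781845, minus), Gm8355 (chr10:14745503-14745592, minus) and Gm6210 (chr6:75296260-75296349, minus). For Hsp90aa1 (chr12:110691605-110692158, minus), they stand unaltered in Gm5844 (chr3:18010842-18010931, plus) and with 1 mismatch, the capital letter, in Gm12346 (chr11:77295744-77295833, plus).
Hspa8: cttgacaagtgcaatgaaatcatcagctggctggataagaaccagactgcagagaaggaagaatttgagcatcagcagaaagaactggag
Hsp90aa1: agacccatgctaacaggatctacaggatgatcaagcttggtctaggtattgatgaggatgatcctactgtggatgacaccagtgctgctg
Gm12346: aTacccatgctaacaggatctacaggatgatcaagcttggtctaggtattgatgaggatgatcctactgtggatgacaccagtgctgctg

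With the copies added, Hspa8 had 1625, 2001, 2807, 805, 1643 and 1023 CPM in cells 1 to 6, and its median was 1634 CPM, against 645 CPM for the gene alone. Hsp90aa1 with copies had 1045, 3393, 2595, 837, 2264 and 1450 CPM, with a median of 1857 CPM. Both medians exceed the 1621 CPM of Hsp90ab1, and with the copies that share at least 1% the medians were 1901 CPM for Hsp90aa1, 1789 CPM for Hspa8 and 1736 CPM for Hsp90ab1. Cell 4 was lowest in both sums, as it was for Hspa8 alone. The ratio of cell 3 to cell 4 was 3.49 (2.58 to 4.81) for Hspa8 with copies and 3.31 (2.01 to 5.78) for Hspa8 alone. Dnaja1 had 101 counts and its 2 copies had 42. The level of these 3 genes is therefore uncertain by the size of the copies, while the order of cells 3 and 4 is the same either way.

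**Figure D3:**
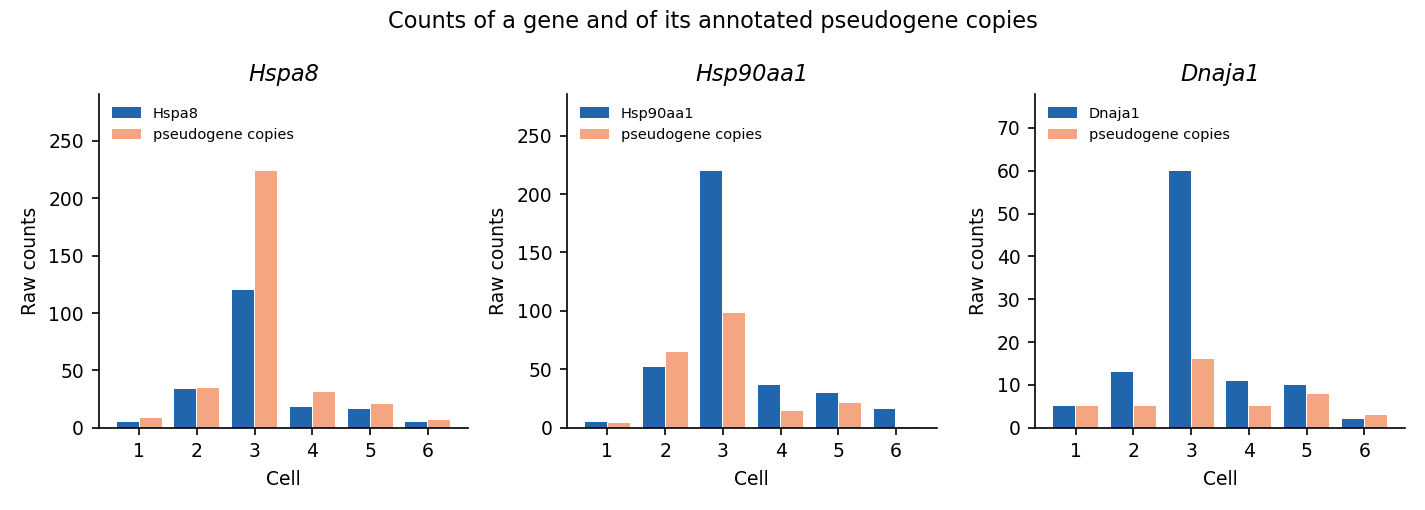
Raw counts of Hspa8, Hsp90aa1 and Dnaja1 (dark bars) and of their annotated pseudogene copies (light bars) in cells 1 to 6. In cell 3 the copies of Hspa8 had 224 counts, more than the 120 counts of the gene itself.

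J proteins choose the clients of Hsp70, and 27 of 36 genes of the class were found, with 462 counts. Their sum was 2090, 1334, 1918, 1773, 2131 and 597 CPM, lowest in cell 6. Dnaja1, a partner of Hsc70 in the cytosol, led with 581, 377, 490, 181, 444 and 171 CPM. Per kilobase of exon (TPM) Dnaja1 ranked 8th of the chaperone list and not 4th, since its annotated exons span 8629 bases. Hsp90ab1, Hsp90aa1 and Hspa8 kept the first 3 places. Division by length does not suit counts of 3' ends, so TPM is given for comparison only.

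Dnajb14, a J protein of the endoplasmic reticulum membrane, had 0, 174, 269, 312, 88.8 and 0 CPM. Dnajb2, which has a neuronal isoform and binds ubiquitin, had 116, 0, 65.3, 131, 178 and 426 CPM. Dnajc7, a co-chaperone that binds both Hsp70 and Hsp90, had 348, 0, 114, 115, 88.8 and 0 CPM. Zeros in cells 1 and 6 say little, because 1 count there stands for 116 and 85.3 CPM.

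Further J proteins differed in the cells where they were found. Dnaja2, a paralog of Dnaja1, had 20 counts in cell 3, 2 in cell 4 and 4 in each of cells 2 and 5. Dnajc5, the cysteine string protein of synaptic vesicles, had 15 and 14 counts in cells 3 and 4, and 3 in the other 4 cells together. Dnajc18 was found in 2 cells, at 49.0 CPM on 6 counts in cell 3 (18.0 to 107 CPM) and at 230 CPM on 14 counts in cell 4 (126 to 386 CPM). Dnajb4 had 116, 58.0, 0, 82.1, 266 and 0 CPM, and the limit of 3 counts in cell 3, where it is at 0, is 24.5 CPM.

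The 8 genes classed as chaperones of the endoplasmic reticulum were all found, with 216 counts and a median sum of 839 CPM. The class does not hold every ER gene of the list, since Dnajb14 was counted with the J proteins. Hspa5, the ER Hsp70 known as BiP, had 464, 232, 408, 164, 311 and 0 CPM. Dnajb9, its J protein partner ERdj4, had 348, 58.0, 147, 328, 400 and 0 CPM. Hsp90b1, the ER Hsp90, had 116, 203, 139, 148, 444 and 341 CPM. The 3 genes did not share an order of cells: Dnajb9 was low in cells 2 and 3, where Hspa5 was at intermediate and high levels. Dnajb11, Dnajc3, Dnajc10, Dnajc1 and Dnajc25 had 12, 10, 6, 5 and 4 counts.

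Mitochondrial chaperones were sparse, with 47 counts over 6 genes and none in cell 1. Hspa9, the mitochondrial Hsp70 of protein import, had 0, 0, 40.8, 213, 88.8 and 85.3 CPM, highest in cell 4. Dnajc15 and Dnajc19, J proteins of the import motor, had 11 and 7 counts and Dnaja3 had 2. The chaperonin of the matrix, Hspd1 with its lid Hspe1, had 4 and 2 counts. These 2 genes overlap on opposite strands and share sequence with other copies, so their counts are uncertain. Small Hsps had 19 counts in 3 of 8 genes: beside Hspb1, Hspb6 had 5 and Hspb11 had 1, all of them in cell 4.

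The CCT ring is built from 8 different subunits, and each was found, Tcp1 included, while Cct6b had no count. Its sum was 581, 667, 873, 821, 799 and 1620 CPM, with cell 6 highest on 19 counts. Cct6a had 116, 29.0, 245, 82.1, 222 and 512 CPM, Cct2 had 116, 174, 65.3, 181, 133 and 171 CPM, and Cct5 had 0, 145, 57.1, 82.1, 133 and 512 CPM. Cell 6 was highest for Cct6a and Cct5, on 6 counts each, and for Cct3 (256 CPM, 3 counts), but not for Cct2. Cct8 reached 178 CPM in cell 5 and 171 CPM in cell 6. Cct4, Cct7 and Tcp1 had no count in cell 6, so only 5 CCT genes were found there. CCT took 25.3% of the chaperone counts in cell 6 (16.0% to 36.7%), and between 8.27% and 13.1% in the other cells. With TMM factors cell 3 had the highest CCT sum (1267 CPM) and cell 6 had 1030 CPM. With DESeq2 size factors cell 6 stayed highest, at 1278 CPM, and cell 3 had 1015 CPM.

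Bag genes had 61 counts, 46 of them from Bag6, which guards newly made membrane proteins and is not a heat shock gene. Bag6 had 0, 87.0, 228, 213, 88.8 and 0 CPM. Bag1, a nucleotide exchange factor of Hsp70, had 12 counts spread over all cells, with 4 at most in a cell. Bag2 had 2 counts and Bag4 had 1.

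Promoters were searched for 3 motifs in RefSeq windows of GRCm38.p6, from 250 bases before to 50 bases after each start. Of the 137 members, 113 matched, with 136 windows. The heat shock element was searched on both strands as GAA, TTC and GAA, or TTC, GAA and TTC, with 2 free bases between the blocks. It stood in 6.59% of 91 chaperone windows, in none of 45 proteasome windows and in 0.603% of all 32851 windows. Its windows were those of 4 of 71 chaperone genes, Hspd1, Hspe1, Hsph1 and Dnajb6. They are not independent, since Hspd1 and Hspe1 share a block and overlapping windows of Dnajb6 hold the same match. The ER stress element, CCAAT and CCACG with 9 free bases between, stood in 3.3% of chaperone windows, those of Hspa5, Hsp90b1 and Dnajc3, and in 0.119% of all windows. TGAC and GC with 3 free bases between, a core of the antioxidant element, stood in 17.6% of chaperone windows, 13.3% of proteasome windows and 12.4% of all. A match is a description of the letters and not a bound site, and a window without one says only that these letters are not in it.

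The stretches below are shown for genes with a motif, some hardly counted and others among the leading members. Capitals mark the motif, and each runs 5' to 3' on the gene's strand. They are Hspe1 at chr1:55088019-55088118 (plus), in which 2 overlapping matches form 1 block that also serves Hspd1 on the other strand, Dnajb6 at chr5:29735798-29735897 (plus), Hspa5 at chr2:34771985-34772084 (plus), Hsp90b1 at chr10:86705595-86705694 (minus) and Dnajc3 at chr14:118937787-118937886 (plus).
Hspe1: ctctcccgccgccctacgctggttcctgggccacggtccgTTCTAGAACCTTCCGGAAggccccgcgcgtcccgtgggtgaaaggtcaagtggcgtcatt
Dnajb6: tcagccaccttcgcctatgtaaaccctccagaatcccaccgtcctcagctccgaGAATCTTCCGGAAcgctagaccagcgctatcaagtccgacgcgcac
Hspa5: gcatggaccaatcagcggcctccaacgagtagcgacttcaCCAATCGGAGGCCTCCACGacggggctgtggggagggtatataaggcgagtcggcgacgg
Hsp90b1: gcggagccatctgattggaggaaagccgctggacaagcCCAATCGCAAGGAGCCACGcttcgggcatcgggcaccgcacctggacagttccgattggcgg
Dnajc3: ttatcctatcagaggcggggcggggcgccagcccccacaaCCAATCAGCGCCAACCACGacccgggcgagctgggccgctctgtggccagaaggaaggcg
Among the genes with a heat shock element in these windows, Hspd1, Hspe1 and Hsph1 had 4, 2 and 5 counts, and Dnajb6, a J protein that keeps aggregation-prone proteins soluble, had 19. Among those with the ER stress element, Hspa5 and Hsp90b1 had 79 and 48 counts and Dnajc3 had 10.

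The proteasome was found as a complete set. All 31 standard subunits of the 26S particle searched for (14 of the core, 6 ATPases and 11 non-ATPases) had counts, with 16, 30, 31, 30, 29 and 10 of them in cells 1 to 6. Pooled over cells, their CPM, not divided by length, spanned a factor of 5.89, from 34.5 CPM for Psmd6 to 203 CPM for Psmd7. Of the 53 counts of Psmd7, 47 were in cell 3. By median CPM over cells the subunits ran from 8.21 CPM for Psmd3 to 232 CPM for Psmb4. Per kilobase of exon, a scale that does not suit counts of 3' ends, median levels ran from 2.32 TPM for Psmd3 to 164 TPM for Psmb4.

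The alpha ring, which gates the core, had 178 counts in 7 of 8 genes, with sums of 813, 870, 530, 821, 932 and 426 CPM. Psma1 had 232, 232, 89.8, 181, 88.8 and 0 CPM, and Psma7 had 116, 203, 147, 131, 88.8 and 0 CPM. Psma2 had 116, 116, 40.8, 65.7, 88.8 and 426 CPM, so it was highest in cell 6, where it held all 5 alpha ring counts. Psma3 had 0, 87.0, 106, 230, 222 and 0 CPM. Psma5 shares 60.0% of its windows with pseudogenes, which held 24 counts against its own 18.

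The beta ring, which holds the cutting sites, had 252 counts in 9 of 11 genes, with sums of 581, 1102, 792, 1281, 844 and 1279 CPM. Psmb4, a subunit without a cutting site, had the highest median of the proteasome, with 232, 232, 73.4, 296, 311 and 0 CPM. Psmb1, also without one, had 0, 261, 65.3, 427, 88.8 and 0 CPM, and its 26 counts in cell 4 made that cell the highest. Psmb3 had 116, 58.0, 89.8, 148, 133 and 171 CPM and varied little around counting error, with an index of dispersion of 0.529.

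The standard cutting subunits Psmb5, Psmb6 and Psmb7 had 21, 52 and 49 counts. Psmb6 had 0, 174, 253, 98.5, 88.8 and 597 CPM, and Psmb7 had 232, 145, 188, 181, 133 and 426 CPM. Both were highest in cell 6, on 7 and 5 counts. Their interferon-inducible replacements, which form the immunoproteasome, were close to absent: Psmb8 had 1 count, in cell 6, and Psmb9 and Psmb10 had none. The immunoproteasome share was 1 of 123 catalytic counts pooled over cells (0.813%, 0.0206% to 4.45%), and 65 of the 123 were from cell 3. Psmb11, the subunit of the thymus proteasome, had 2 counts, both in cell 4.

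The ATPase base, which unfolds substrates, had 204 counts in 6 of 7 genes, Psmc3ip being the one without. Its sums were 348, 580, 898, 739, 666 and 938 CPM. Psmc2 had 0, 145, 245, 181, 222 and 0 CPM, Psmc6 had 232, 145, 228, 115, 133 and 171 CPM, and Psmc5 had 0, 87.0, 114, 279, 133 and 341 CPM. Psmc1 had 0, 87.0, 106, 16.4, 133 and 426 CPM, lowest among cells 2 to 6 in cell 4, where it had 1 count.

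The non-ATPase class had 345 counts, and all 14 genes were found. Its sums were 1045, 1160, 1444, 1314, 1554 and 341 CPM, lowest in cell 6, which had 4 counts. Psmd11, a scaffold of the lid, had 116, 174, 245, 148, 88.8 and 0 CPM, Psmd2, of the base, had 116, 116, 147, 213, 178 and 0 CPM, and Psmd4, a ubiquitin receptor, had 116, 174, 73.4, 98.5, 133 and 0 CPM. Psmd1, also of the base, had 116, 58.0, 106, 82.1, 355 and 0 CPM, highest in cell 5 on 8 counts.

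Psmd7, the lid subunit that pairs with the deubiquitinating subunit Psmd14, had 0, 3, 47, 0, 1 and 2 counts in cells 1 to 6, which is 384 CPM in cell 3 (282 to 510 CPM) and 0 in cell 4. Against the limit of 3 counts in cell 4 (49.3 CPM) the level in cell 3 was 7.79-fold higher. That is not a lower bound, and the exact interval of the ratio begins at 6.09. Psmd14 did not show this pattern, with 7 counts in cell 3 and 5 in cell 4. Psmd8 ran the other way, with 40.8 CPM in cell 3 and 230 CPM in cell 4.

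Activators and regulators of the core were low apart from Psme4, the nuclear activator PA200, which had 116, 116, 106, 98.5, 311 and 0 CPM. Psme1 and Psme2, the interferon-inducible subunits of PA28, had 11 and 6 counts, and Psme3 had 7. Psme2 and Psme2b share 28.3% and 69.3% of their windows, so the 5 counts of Psme2b are uncertain. Psme1 had 7 counts in cell 4, 3 in cell 6 and 1 in cell 2. Psmf1, an inhibitor of the core that is also known as PI31, stood at 171 CPM in cell 3 on 21 counts, at 49.3 CPM in cell 4 on 3 counts and at 0 elsewhere. The assembly factors Psmg2 and Psmg3 had 9 and 3 counts.

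**Figure D4:**
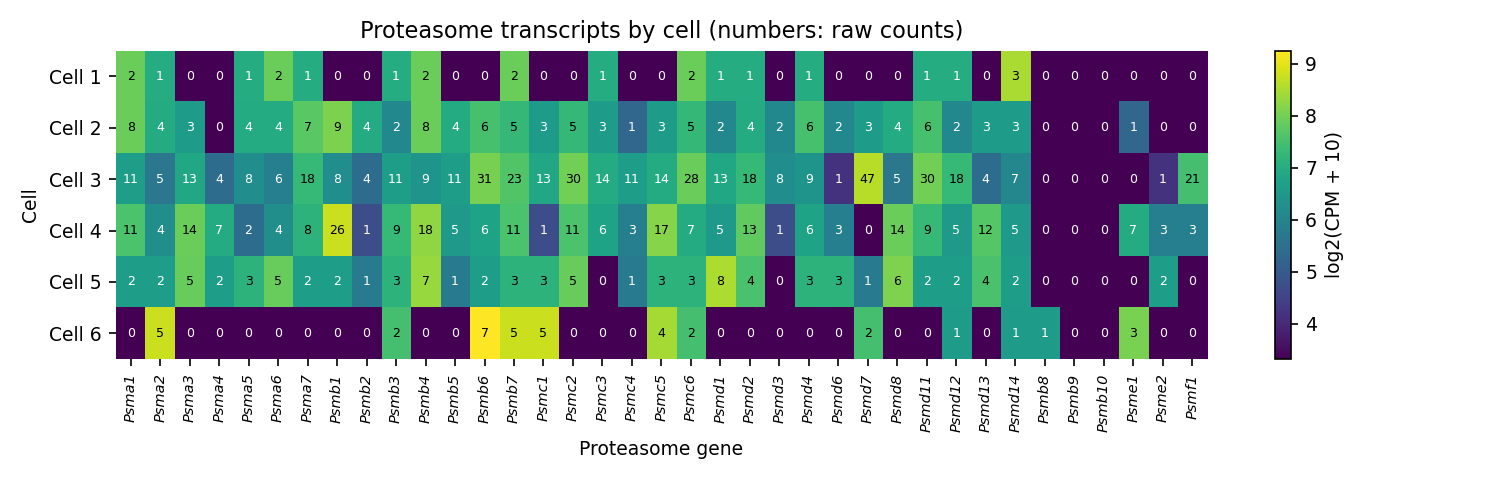
Proteasome genes (columns) in cells 1 to 6 (rows), with colour for log2(CPM + 10) and the raw count printed in each field. The 31 standard subunits stand left of the inducible and regulatory genes. Psmd7 has 47 counts in cell 3 and 0 in cell 4, and Psmb9 and Psmb10 are at 0 in every cell.

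The core took 12 of 24 counts of the Psma to Psmd genes in cell 1, and 53.1%, 36.1%, 50.6%, 44.4% and 57.1% of them in cells 2 to 6. Cell 3 was lowest, and its interval of 31.6% to 40.7% lies below those of cell 2 (44.1% to 62.0%) and cell 4 (44.3% to 56.9%). Psmd7, which is not in the core, gave 47 of the 449 counts of cell 3, against 3 counts in cell 2 and 0 in cell 4. Whether the intervals stay apart without Psmd7 was not tested.

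Cells 3 and 4 were the deepest, and their ratio, cell 3 over cell 4, was taken after the data had been seen. The sums of the 2 cytosolic systems were higher in cell 3. The Hsp90 sum was 3411 CPM in cell 3 and 1527 CPM in cell 4, a ratio of 2.23 (1.78 to 2.83). The Hsp70 and Hsp110 sum was 1444 and 640 CPM, a ratio of 2.26 (1.59 to 3.28). In this second class Hspa8 alone held 120 of 177 counts in cell 3 and 18 of 39 in cell 4. Hspa4l had a ratio of 2.09 (0.766 to 7.08), and Hspa4 went the other way, at 0.633 (0.267 to 1.54). ER chaperones, J proteins, CCT and Bag had ratios of 0.965, 1.08, 1.06 and 0.877, with intervals that include 1. The alpha ring had 530 CPM in cell 3 and 821 CPM in cell 4, a ratio of 0.646 (0.440 to 0.954), and the beta ring 792 and 1281 CPM, a ratio of 0.618 (0.454 to 0.844). The beta ring genes did not move together. Psmb1 had 8 counts in cell 3 and 26 in cell 4, and Psmb4 had 9 and 18. Psmb6 went the other way, with 31 and 6 counts, and Psmb7 had a ratio of 1.04. The ATPase base (1.21) and the non-ATPase class (1.10) had intervals that include 1, and mitochondrial chaperones had 0.435 (0.197 to 0.951) on 14 and 16 counts.

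**Figure D5:**
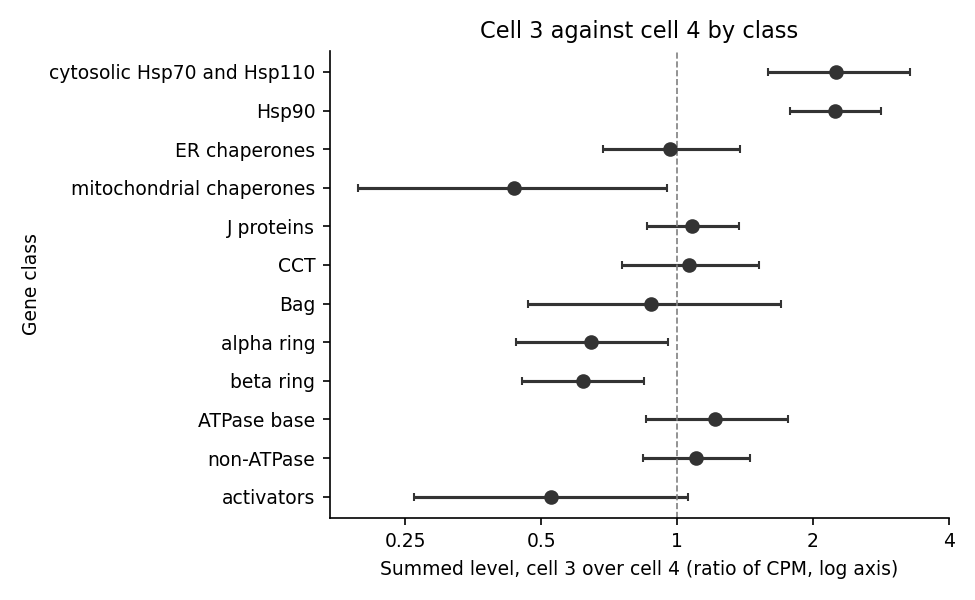
Ratio of the summed level of a class in cell 3 to that in cell 4, on a log axis, with exact 95% intervals of counting error. Hsp90 and the cytosolic Hsp70 and Hsp110 class lie to the right of 1, at 2.23 and 2.26. The alpha and beta rings lie to the left, at 0.646 and 0.618.

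Single genes with at least 20 counts in both cells together numbered 18 chaperones and 17 proteasome genes. Of the chaperones, 7 were at least 2-fold higher in cell 3, against 25.8% of 2066 such genes, and 3 at least 2-fold lower, against 19.6%. Of the proteasome genes, 3 were higher and 5 lower. The chaperones higher in cell 3 were Hspa8 (3.31), Hsp90aa1 (2.95), Cct6a (2.98), Dnaja1 (2.71), Dnaja2 (4.97), Hspa5 (2.48) and Hspa4l (2.09, 0.766 to 7.08, an interval that includes 1). Those lower were Dnajb9 (0.447), Dnajc18 (0.213) and Cct7 (0.466, 0.215 to 1.01, an interval that includes 1). The proteasome genes higher were Psmd7, Psmb6 (2.57) and Psmf1 (3.48). Those lower were Psmb1 (0.153, 0.0598 to 0.348), Psmb4 (0.248, 0.0983 to 0.582), Psmc5 (0.409) and, with intervals that include 1, Psma1 (0.497) and Psma3 (0.461).

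With TMM factors, which raise every ratio of cell 3 to cell 4, Hsp90 had 2.62 (2.09 to 3.31) and the Hsp70 and Hsp110 class 2.64 (1.86 to 3.84). The beta ring then had 0.724 (0.532 to 0.988), and the alpha ring 0.757 (0.515 to 1.12), which includes 1. Mitochondrial chaperones had 0.509 (0.230 to 1.11), which then includes 1. J proteins had 1.27 with TMM factors, with an interval that lies just above 1 and reaches 1.61. The alpha ring had 0.661 and mitochondrial chaperones 0.445 with DESeq2 size factors, with upper limits of 0.976 and 0.973. Both intervals thus stayed below 1, as by library totals. In that scaling the beta ring had 0.633, with an upper limit of 0.864, and J proteins had 1.11, with an interval that includes 1. The proteasome as a whole had 0.882 (0.760 to 1.02) by library totals and 1.03 (0.890 to 1.20) with TMM factors. Marker sums also differed between these cells. Mature neuron markers, 7 of 7 found in both, summed to 23991 CPM in cell 3 and 13349 CPM in cell 4. Immature neuron markers, 4 of 5 found in both, summed to 996 CPM in cell 3 and 2726 CPM in cell 4, and red blood cell markers, also 4 of 5, to 4080 CPM in cell 3 and 12610 CPM in cell 4. Their part in these ratios was not tested.

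Spread between cells was measured for each gene by an index of dispersion, the Pearson chi-square of its 6 counts over 5 degrees of freedom, which is near 1 where counting error alone acts. Its median was 1.94 over the 56 chaperone genes that averaged 10 CPM or more, and 1.60 over 41 such proteasome genes, against 1.74 over 9760 such genes of the table. The largest among members that averaged 50 CPM or more were Hsp90aa1 (9.21), Hspa8 (5.91), Dnajb4 (5.55), Hspa4l (5.01) and Cct5 (4.84) for chaperones. For the proteasome they were Psmd7 (7.78), Psmb1 (7.40), Psme1 (5.39), Psma2 (4.14) and Psmd8 (4.06). With all cells thinned to 8613 counts the medians were 0.996, 1.03 and 1.0, so at that depth no spread beyond counting error was detectable in the typical gene of either list.

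Each cell was also set against the mean of the other 5 by the log2 ratio of (CPM + 10). Over the 56 chaperone genes the medians for cells 1 to 6 were -1.35, -0.16, -0.08, -0.50, 0.14 and -1.84. Over the 41 proteasome genes they were -1.76, -0.16, -0.24, 0.23, -0.28 and -2.44, and over all 9760 genes -1.60, -0.65, -0.17, -0.07, -0.45 and -1.72. The low medians of cells 1 and 6 stand in all 3 sets. Most members had no count there: 25 and 15 of 87 chaperone genes and 19 and 12 of 50 proteasome genes were found in these cells. Their size depends on the pseudocount, with -3.90 and -4.74 for chaperones at 1 CPM and -0.48 and -0.68 at 50 CPM. They are therefore no measure of how much lower these genes were. The medians of cells 2 and 3 turned positive with TMM factors, to 0.23 and 0.34 for chaperones and 0.21 and 0.29 for the proteasome. Chaperone genes at least 2-fold higher than the mean of the other cells numbered 10, 6, 12, 13, 16 and 7 in cells 1 to 6, against 16.8%, 14.5%, 19.3%, 25.3%, 24.4% and 17.2% of all genes. Those at least 2-fold lower numbered 34, 20, 14, 18, 15 and 42, against 69.9%, 44.6%, 29.9%, 34.4%, 44.7% and 72.2%. Proteasome genes at least 2-fold higher numbered 4, 6, 7, 8, 9 and 7, and those at least 2-fold lower 22, 9, 12, 8, 11 and 29. The shares of chaperone genes in cell 4, 23.2% higher and 32.1% lower, were close to those of all genes.

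Other genes of protein folding and breakdown, a list of 45, were found for 43 genes and in all cells for 7. Ubb, a polyubiquitin gene, had 2554, 2262, 1885, 1379, 2175 and 3412 CPM in cells 1 to 6. Ubb was lowest in cell 4 and highest in cell 6. Vcp, the ATPase that extracts ubiquitin-tagged proteins, had 581, 319, 563, 131, 533 and 171 CPM, low in cells 4 and 6.

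Partners of Hsp90 and Hsp70 had 274 counts in 9 of 10 genes, with sums of 581, 754, 1444, 690, 666 and 768 CPM. Cell 3 was highest, and Stub1, a ubiquitin ligase that binds both chaperones, had 39 counts there and 5 in cell 4. St13, an Hsp70 partner, had 31 counts in cell 3 and 0 in cell 4. Prefoldin, which hands clients to CCT, had all 6 genes and 139 counts, 61 of them from Vbp1 in cell 3. Nfe2l1, known as a factor that drives proteasome genes, had 17 counts, and Nfe2l2, the factor of the antioxidant response, had 697, 87.0, 539, 443, 444 and 171 CPM. Over the 37 genes of this list that passed 10 CPM, the median log2 ratios of cells 1 to 6 were -0.64, -0.21, 0.27, -0.35, 0.06 and -1.95, beside the medians of all genes given above.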

How the data were processed

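The authors deposited raw counts per gene symbol for 55341 genes in 6 columns, 1 per cell, and they were used as deposited; no other column was present. Bowtie2 2.3.4, HTSeq, CASAVA and the build mm10 are listed, without roles, in the submitters' processing notes. Not given in the sources used here are the annotation, the strand setting, the treatment of multiply aligned reads and whether molecular identifiers were collapsed. A count may thus be a read or a molecule, intervals are too narrow if it is a read, and genes that overlap or share sequence may exchange reads.

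Members, classes and gene lists were chosen with earlier results of these data known. The genes named are the 4 of highest median CPM in each class, 10 chosen by role (inducible chaperones, immunoproteasome and PA28 genes), those leading a cell and the 5 most dispersed of each list with a mean of at least 50 CPM. The values of 1 of the other folding and degradation genes are not reported here. Others were chosen after their values were seen, as were the promoter and copy sequences.

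CPM was taken over all counts of a cell, without division by length, since CEL-Seq2 counts 3' ends; TPM divides by the exon length in GENCODE M21 (GRCm38), which held all 55341 symbols. Poisson, Clopper-Pearson and ratio intervals are exact at 95%. Shared sequence was counted in 50-base windows of the last 1000 transcript bases. Tools were Python 3.11.15, pandas 2.3.3, NumPy 2.4.6, SciPy 1.17.1, matplotlib 3.10.9, R 4.3.3, edgeR 4.0.16 (TMM) and DESeq2 1.42.0 (size factors). The log2 ratio, dispersion and intervals were tested on simulated data. With 1 group of single cells and no animals named, no p-value was computed.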

Additional observations from a re-analysis of the deposited data

Results flagged for a closer look

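By Dixon's ratio of gap to range, 60 sets of 6 values were examined and 12 held a cell far from the other 5. The usual rate of about 1 in 20 assumes normal values of equal spread, and these are low counts at unequal depths. Some of the genes had also been named for leading a cell or for their dispersion. The number flagged therefore cannot be set against chance. Of the 12, 7 were in cell 6, the second shallowest library, in which 1 count stands for 85.3 CPM. They are the CCT sum (1620 CPM), the immunoproteasome share of catalytic counts (7.69%, 1 of 13 counts), Cct5 (512 CPM), Hspa4 (341 CPM), Psma2 (426 CPM), Psmb7 (426 CPM) and Psmc1 (426 CPM), each on 1 to 6 counts apart from the CCT sum on 19. Psmd1 (355 CPM) and Psme4 (311 CPM) stood apart in cell 5, on 8 and 7 counts. Dnajc18 stood apart in cell 4 (230 CPM, 14 counts), Dnajc7 in cell 1 (348 CPM, 3 counts) and Psmf1 in cell 3 (171 CPM, 21 counts). Of these, Dnajc18 and Psmf1 rest on more than 10 counts in a deep library, but both had been named because they led that cell.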

How the results depend on the processing

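Of 177 alternative values, 146 moved by less than the spread between cells (1 SD), or by less than 1.5 times for a count of genes, and 31 moved further. Among the 146, log2 medians near 0 changed sign with TMM factors, to 0.23 in cell 2 and 0.34 in cell 3 for chaperones and 0.21 and 0.29 for the proteasome; with DESeq2 size factors they were 0.09, 0.03, 0.02 and -0.02. The median chaperone sum of 7457 CPM became 11360 over protein-coding totals, 2430 without members sharing any window, 5046 without those sharing at least 10%, 10039 with pseudogene copies and 2721 as TPM. The median proteasome sum of 4006 CPM became 4819 with TMM factors, 5714 over protein-coding totals, 1826 without members sharing any window and 2141 as TPM. Chaperone genes found in all cells, 10, became 3 at 3 counts, 5.55 after thinning and 27 without the cells under 20000 counts. With each cell left out they ranged from 10 to 16, with 16 found without cell 6. Proteasome genes found in all cells, 6, became 0, 1.25 and 28 in the same order, and ranged from 6 to 16, the highest again without cell 6. The Hsp90ab1 share became 43.8% with copies sharing at least 1% of windows, so that Hsp90aa1 then held the larger part. The log2 medians of cells 1 and 6 were -3.90 and -4.74 for chaperones and -4.63 and -5.50 for the proteasome with a pseudocount of 1 CPM, and -0.48, -0.68, -0.56 and -0.91 with 50 CPM. Without the filter they were -0.41 and -0.99 for chaperones and -0.52 for the proteasome in cell 1. The median dispersion became 0.996 and 1.03 after thinning. The cause of these moves was not tested. Median sums ranged from 6850 to 8063 CPM and from 3974 to 4039 CPM with each cell left out. No paired analysis was possible because the 6 cells form a single group. Depth limits cells 1 and 6 most: 3 counts there stand for 348 and 256 CPM.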
